A study of Homo sapiens with 8 samples.

Results

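This section describes the peaks of wild-type dnTCF1E (dnTCF1EWT) and of its C-clamp mutant (dnTCF1Emut) after 9 h of induction, as listed by ChIP-seq in DLD-1 colon cancer cells. The complete dnTCF1Emut 9 h list was set beside an equal number of the highest-scoring peaks among the 12996 of the dnTCF1EWT 9 h list, giving 708 regions of the 23433 peaks in the 6 lists of the series. A peak was called shared if it had at least 1 base in common with any peak of the complete other 9 h list. Both cell lines are clonal DLD-1 derivatives kept in blasticidin and zeocin, each with a FLAG-tagged protein under doxycycline control. Both proteins lack the N-terminal β-catenin binding domain and keep the HMG box, and dnTCF1Emut also carries a substitution of 5 amino acids in the C-clamp. Doxycycline was given at 1 µg/mL for 2 or 9 h, the 0 h cells of each line had none, and chromatin was recovered with anti-FLAG beads. The duplicates of each condition were pooled by the authors before peak calling, so each condition is 1 list, there is no spread between replicates, and no p-value is given. Protein, cell line and library cannot be told apart in this comparison, the read depth behind the lists is unknown, and the labels state only that the dnTCF1Emut input was sequenced more deeply than the other samples.

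TCF1 is a LEF/TCF transcription factor of the Wnt pathway, which recruits β-catenin to target genes and so activates them, and a dominant negative form competes with the endogenous factors for their sites. Its HMG box recognizes the Wnt response element (WRE), and the C-clamp of the E isoforms is a further DNA binding domain that recognizes GC-rich Helper sites. DLD-1 cells carry truncated APC, the scaffold of the β-catenin destruction complex, so that Wnt signaling is constantly active. The lists count, within each peak, the WRE (CTTTG followed by A or T at the next positions and then C or G), the short Helper site (ACCG or GCCG) and the Helper site (ACCGCC or GCCGCC), and every Helper site also holds a short Helper site.

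The promoters that were bound show what these elements look like in sequence. The 3 promoters below are those of genes with a single entry in the RefSeq table (GRCh38.p14, 250 bases before to 50 after the start) of which, by the distance given in the hg19 lists, the peak covered at least 75% of the window, assuming that both use the same start. Matches to the WRE or the Helper site on either strand are in capitals. At 9 h, SP5 and FKBP3 had a peak of dnTCF1EWT alone and KLRC3 had a peak of both proteins.

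SP5 (chr2:170715087-170715386, plus strand): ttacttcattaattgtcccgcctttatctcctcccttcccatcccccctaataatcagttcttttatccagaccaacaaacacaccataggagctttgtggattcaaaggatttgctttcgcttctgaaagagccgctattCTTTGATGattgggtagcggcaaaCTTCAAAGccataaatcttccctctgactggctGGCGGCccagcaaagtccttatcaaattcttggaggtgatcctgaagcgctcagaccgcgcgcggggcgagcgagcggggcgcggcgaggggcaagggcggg

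FKBP3 (chr14:45134432-45134731, minus strand): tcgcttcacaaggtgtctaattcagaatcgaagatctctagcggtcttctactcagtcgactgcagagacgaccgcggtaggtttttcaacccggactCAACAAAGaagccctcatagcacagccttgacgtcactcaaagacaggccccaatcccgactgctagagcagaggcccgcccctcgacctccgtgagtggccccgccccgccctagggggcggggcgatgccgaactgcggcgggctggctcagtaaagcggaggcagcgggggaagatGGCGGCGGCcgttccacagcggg

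KLRC3 (chr12:10420546-10420845, minus strand): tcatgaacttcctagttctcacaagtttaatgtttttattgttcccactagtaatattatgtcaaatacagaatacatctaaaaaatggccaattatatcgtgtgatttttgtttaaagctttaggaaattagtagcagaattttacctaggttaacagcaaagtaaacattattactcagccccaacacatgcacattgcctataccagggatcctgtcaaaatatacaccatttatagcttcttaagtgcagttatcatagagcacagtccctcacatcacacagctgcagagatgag

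The SP5 window held 2 WREs and 1 Helper site, the FKBP3 window 1 WRE and 2 overlapping Helper sites, and the KLRC3 window none. By the listed distance, the FKBP3 peak covered 81.3% of its window and left out the last bases. Both FKBP3 Helper sites lie in those bases, outside the peak. Of all 35116 promoter windows in the table, 6.62% held a WRE, 41.6% a Helper site and 78.3% a short Helper site. A match is a description of the letters and not evidence of binding. The deposited counts cover the whole peak and gave 3 WREs and 3 Helper sites at SP5, 1 WRE and no Helper site at FKBP3, and neither at KLRC3.

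A minority of the sites were shared. Of the highest dnTCF1EWT peaks, 47 overlapped a dnTCF1Emut peak (13.3%, Wilson 95% interval 10.1 to 17.2%), and over the full dnTCF1EWT list 89 of 12996 did (0.685%). From the other side, 87 of the dnTCF1Emut peaks overlapped a dnTCF1EWT peak (24.6%, 20.4 to 29.3%), and for 40 of these 87 the dnTCF1EWT peak ranked below the members. Intervals here and below cover counting error only. The shared fraction varied along the ranks. It was 26.0% in dnTCF1EWT ranks 1 to 50, 18.0% in ranks 51 to 100, 6.0% in the next 100, 12.3% in the rest of the members, and 2.63% from there to rank 1000. In the dnTCF1Emut list it was 42.0% in ranks 1 to 50 and 15.6% after rank 200. The peak score, proportional to the negative logarithm of the MACS P-value and not scaled for depth, ran from 124.63 to 2671.85 in the dnTCF1EWT members and from 50.17 to 974.95 in the dnTCF1Emut list. At the limit of the selection by score lay TIAM1 (125.11) and MYL10 (124.63) inside and MIR5197 (124.59) and LOC100132987 (124.48) outside, and the dnTCF1Emut list ended with EPHB1 (50.22) and LOC441009 (50.17).

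Several of the highest-scoring regions of both proteins were shared. A region upstream of SYK, a cytoplasmic tyrosine kinase (chr9:93525830-93526385, hg19), had the highest dnTCF1Emut peak, with a score of 974.95 against 2055.92 for dnTCF1EWT, and held no WRE and no Helper site. At 2 h the order there was the opposite, with 2168.71 for dnTCF1Emut and 617.06 for dnTCF1EWT. A region near MIR1257 (chr20:60560863-60561668) held 10 WREs and no Helper site of either kind. It scored 2671.85 for dnTCF1EWT and 368.30 for dnTCF1Emut. ZNF638, which encodes a zinc finger protein, had an intronic LTR22A element with 7 WREs, scored 924.83 and 289.56. The other regions among the 10 strongest shared ones lay nearest to NELF, ASMT, RANBP10, FAT1, TMEM177 and HAS2. ASMT, which encodes the last enzyme of melatonin synthesis, appears on both X and Y because its pseudoautosomal sequence is present in both chromosomes of the reference, so these copies are not separate sites.

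Over the 87 shared regions, the dnTCF1EWT score was the higher in 67 and the dnTCF1Emut score in 20, with a mean log2 ratio of 0.73 ± 1.12 (SD over regions). Scores chose the dnTCF1EWT members and are not depth scaled, so this ratio is a description of the lists. The largest ratios were at ASMT on the Y chromosome (3.77), RANBP10 (3.53), which encodes a Ran-binding scaffold protein, and NELF (3.50). The X copy of the ASMT sequence had a ratio of 2.00. The smallest were at CXADR (-1.38), which encodes a cell adhesion molecule and virus receptor, CDC42EP3 (-1.37), an effector of the CDC42 GTPase, and AUTS2 (-1.33). The dnTCF1EWT peaks at these last regions held no Helper site and at most 1 short Helper site. With shared regions divided by their count of short Helper sites (dnTCF1EWT peak), the ratio averaged 0.39 ± 0.98 for none (n = 43), 0.68 ± 1.10 for 1 (n = 18), 1.14 ± 1.13 for 2 or 3 (n = 16) and 1.61 ± 1.16 for 4 or more (n = 10). The SDs of neighbouring groups overlap. The group with 4 or more holds the ASMT copies on X (2.00) and on Y (3.77), which are not separate sites. Its mean with only 1 of these copies was not computed. Peak length moved with the number of short Helper sites, from a median of 343 bp with none to 539.5 bp with 4 or more. The part of peak length in the trend was not tested. By presence of a WRE the means were 0.76 ± 1.12 (n = 50) and 0.68 ± 1.14 without (n = 37).

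**Figure D1:**
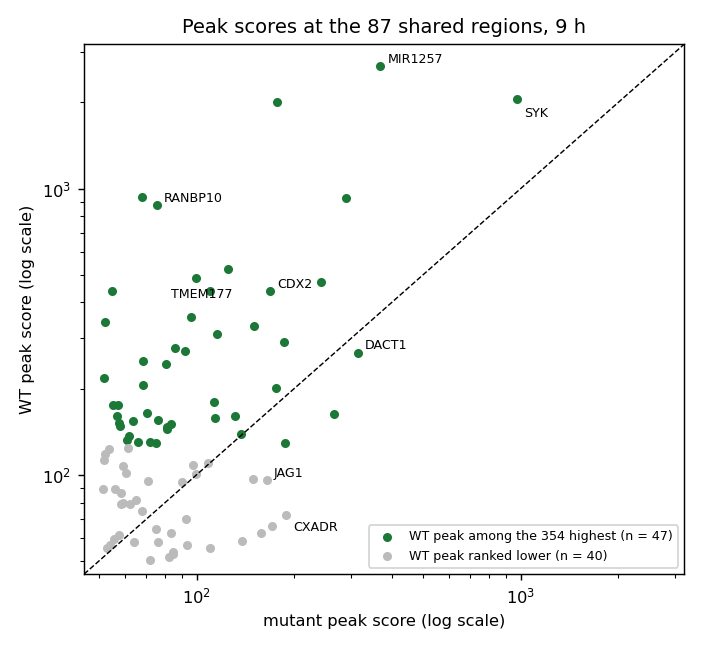
Peak scores of dnTCF1EWT (vertical, log scale) and dnTCF1Emut (horizontal, log scale) at the 87 shared regions at 9 h, 1 point per dnTCF1Emut peak, with equality as a dashed line. 67 points lie above the line, SYK and MIR1257 are at the top, and CXADR and JAG1 lie below it.

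The classes differed in the elements they held. A Helper site was present in 92 dnTCF1EWT peaks (26.0%, 21.7 to 30.8%) and in 15 of dnTCF1Emut (4.24%, 2.58 to 6.87%). The odds ratio was 7.92, with an exact 95% interval from 4.43 to 15.1. The interval leaves out 1, which is the threshold used throughout. Short Helper sites were found in 73.7% and 30.8% of the peaks (odds ratio 6.29, 4.49 to 8.87), and the WRE in 50.6% and 30.5% (2.33, 1.69 to 3.21). Peaks with 2 or more Helper sites numbered 52 for dnTCF1EWT and 2 for dnTCF1Emut (30.2, 7.84 to 258), and within strata of 5% GC that odds ratio was 4.96 (0.990 to 24.9), which no longer leaves out 1. The 52 are not independent sites. Among them, 9 lay nearest to RHOU in 1 stretch (chr1:228747644-228780044), with 2 to 12 Helper sites each. They also include peaks near INTS4L1 and INTS4L2, which are near-identical copies. The odds ratio for this count with 1 peak per nearest gene was not computed. A Helper site without a WRE was seen in 51 dnTCF1EWT peaks and 6 dnTCF1Emut peaks. The 0 h lists, with no protein induced, also differed. A Helper site was in 3.83% of the 1907 peaks of the dnTCF1EWT line and 0.424% of the 708 of the dnTCF1Emut line. Short Helper shares were 45.9% and 9.18%, and median GC contents 49.7% and 6.32%. Without peaks that overlap a 0 h peak, the 9 h Helper odds ratio was 5.47 (2.93 to 11.0). The part of the cell line background in these odds ratios was not tested.

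GC content also differed between the lists, the median being 46.5% in the dnTCF1EWT members and 35.6% in the mutant list. None of the dnTCF1EWT peaks had a GC content below 15%, which allows a share of up to 0.847% at this number of peaks, whereas 124 dnTCF1Emut peaks did (35.0%). Leaving these AT-rich peaks out, the WRE was present in 106 of 230 dnTCF1Emut peaks (46.1%, 39.8 to 52.5%), and the odds ratio against dnTCF1EWT was 1.20 (0.846 to 1.69), so that a difference in WRE share was no longer resolved. The Helper site was still more frequent for dnTCF1EWT (5.02, 2.79 to 9.61), as was the short Helper site (3.33, 2.32 to 4.82). With peaks compared only within strata of 5% GC, the pooled odds ratios were 1.34 (0.905 to 1.98) for the WRE, 1.90 (1.28 to 2.82) for the short Helper site and 2.35 (1.23 to 4.49) for the Helper site. These intervals overlap, and a difference between the elements was not tested. The gaps varied between bands of GC content. In the 15 to 40% band, a short Helper site was found in 47.8% (dnTCF1EWT, n = 46) and 39.2% (dnTCF1Emut, n = 125), and a WRE in 56.5% and 44.8%. In the 40 to 45% band the short Helper shares were 64.4% (n = 104) and 49.0% (n = 51), with the WRE at 66.3% and 54.9%. The 45 to 50% band gave 78.8% (n = 80) and 48.4% (n = 31) for the short Helper site, while the WRE shares were 50% and 51.6%. From 50 to 60%, short Helper sites were in 83.1% (n = 77) and 66.7% (n = 21), and WREs in 36.4% and 28.6%. At 60% GC or more, dnTCF1EWT had 47 peaks (76.6% with a Helper site) and dnTCF1Emut had 2.

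**Figure D2:**
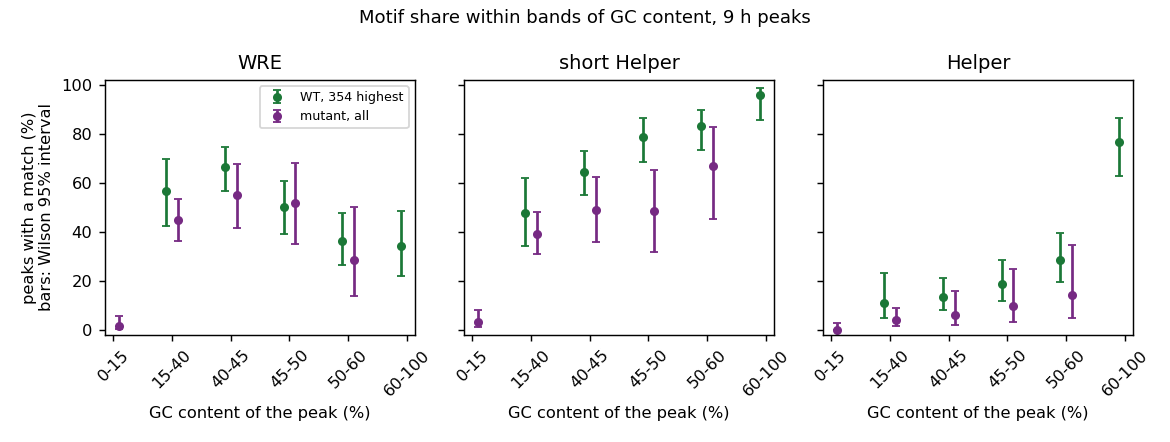
Share of peaks (%, Wilson 95% intervals) with a WRE, short Helper site or Helper site within bands of GC content (%), for the highest dnTCF1EWT peaks and all dnTCF1Emut peaks. Bands with fewer than 20 peaks of a list are not drawn. The short Helper share was higher for dnTCF1EWT in each of the 4 bands drawn for both lists, with the largest gap at 45 to 50% GC (78.8% and 48.4%), and the WRE share was higher for dnTCF1EWT in 3 of them.

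The strongest peak listed for dnTCF1EWT only was an intronic one nearest to ARPC5L (chr9:127657120-127657898), a gene for an actin-nucleating complex subunit, at 1727.87 with 5 WREs and no short Helper site, and neither protein had a 2 h peak there. LINC00565 followed at 985.79 with 13 short Helper sites and no WRE, and dnTCF1EWT had scored 2133.84 there at 2 h. The others among the 10 highest were 2 peaks nearest to INTS4L2 (930.90 and 766.60), LOC100133920 (918.15), INTS4L1 (869.37), SALL3 (762.36), a second SYK region (729.78), TDRD12 (717.84) and GZMB (705.09). Of these 10 peaks, 3 held a WRE, 4 others a Helper site and none both. The peaks near SALL3 and TDRD12 held no element of any of the 3 kinds.

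The 5 peaks with the most Helper sites were all of dnTCF1EWT. The highest number, 38 Helper sites, was in a peak near MIR4436A (score 681.55), followed by 32 near LOC100133920 (918.15), 28 near ACTR3BP2 (196.40), 27 near GGT8P (256.70) and 19 near FOXD4L4 (453.83). These peaks are GC-rich, between 55.5% and 71.2%, and held no WRE. ACTR3BP2, GGT8P and FOXD4L4 are pseudogenes or members of duplicated families, where reads can map to several copies, so their scores are uncertain. The peaks named for MIR4436A and LOC100133920 lay 1337921 and 134563 bases from the TSS. Whether their reads also map to several copies was not tested. Keeping only the highest peak of each nearest gene left the Helper odds ratio at 7.84 (4.2 to 15.7). In the dnTCF1Emut list the most Helper sites, 7, were near LOC100288255 (92.60, shared), with 3 near GYG2P1 (75.18) and 1 each in the rest.

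Promoters were more often occupied by dnTCF1EWT. Peak centers within 2 kb of a transcription start site (TSS) numbered 41 for dnTCF1EWT (11.6%) and 8 for dnTCF1Emut (2.26%), an odds ratio of 5.65 (2.57 to 14.2). Within strata of GC content it was 2.09 (0.766 to 5.68), which no longer leaves out 1. Of the 41 dnTCF1EWT promoter peaks, 30 held a Helper site and 17 a WRE, and 19 held a Helper site with no WRE. Outside promoters the Helper site remained more frequent for dnTCF1EWT, in 62 of 313 peaks (19.8%) against 14 of 346 (4.05%), an odds ratio of 5.84 (3.15 to 11.6). Intergenic peaks were fewer for dnTCF1EWT (53.7% against 66.4%, odds ratio 0.587, 0.428 to 0.804), and within strata of GC content the odds ratio was 0.70 (0.473 to 1.03). The median distance to a TSS was 39.8 kb for dnTCF1EWT and 70.2 kb for dnTCF1Emut.

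SP5, a zinc finger transcription factor gene and a direct Wnt target, had its peak 162 bases upstream of the TSS (chr2:171571428-171571962, hg19) with 3 WREs and 3 Helper sites. Its score was 1212.83 for dnTCF1EWT and 152.92 for dnTCF1Emut at 2 h, and at 9 h 505.79 for dnTCF1EWT, with no dnTCF1Emut peak listed. Neither line had a 0 h peak there. RHEB, the gene of the GTPase that activates mTORC1, had a peak in its 5' UTR, 310 bases downstream of the TSS. This peak held 12 Helper sites and no WRE and scored 328.32. It lay outside the RefSeq promoter window of RHEB, which held no Helper site. UHRF1, which maintains DNA methylation at replication, scored 401.64 with 2 WREs and 2 Helper sites. The other dnTCF1EWT promoter peaks among the 10 highest were those of INTS4L2 (930.90) and INTS4L1 (869.37), which are near-identical copies related to an Integrator subunit, FGGY (667.06), a carbohydrate kinase gene, HOXB3 (332.90), a homeobox gene, RIPK4 (311.14), a kinase gene, and SLC16A1 (229.65), which encodes a lactate transporter. TMEM177, which encodes a mitochondrial membrane protein, was the strongest promoter with both proteins, at 487.53 and 99.90, with 5 WREs and 1 Helper site in each peak.

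The other promoters with dnTCF1Emut peaks were few. NPAS4, an activity-dependent transcription factor gene, was shared (83.71 against 150.65) and had a 0 h peak in both lines, at 189.79 in the dnTCF1Emut line and 120.59 in the dnTCF1EWT line. The KLRC2, KLRC3 and KLRC4 genes, which encode related lectin-like receptors of natural killer cells and lie side by side on chromosome 12, were shared with scores of 51.56, 58.66 and 83.31 for dnTCF1Emut and 89.30, 86.53 and 62.64 for dnTCF1EWT. None of their peaks held a WRE or a Helper site, and their sequences are close copies, so reads may be divided among them. SCGB1C1 (55.06), HERC6 (53.87) and ALDH1A1 (52.86), which encodes a retinaldehyde dehydrogenase, had dnTCF1Emut peaks only, all near the end of the list, and the HERC6 peak was a TA repeat of 0.70% GC.

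**Figure D3:**
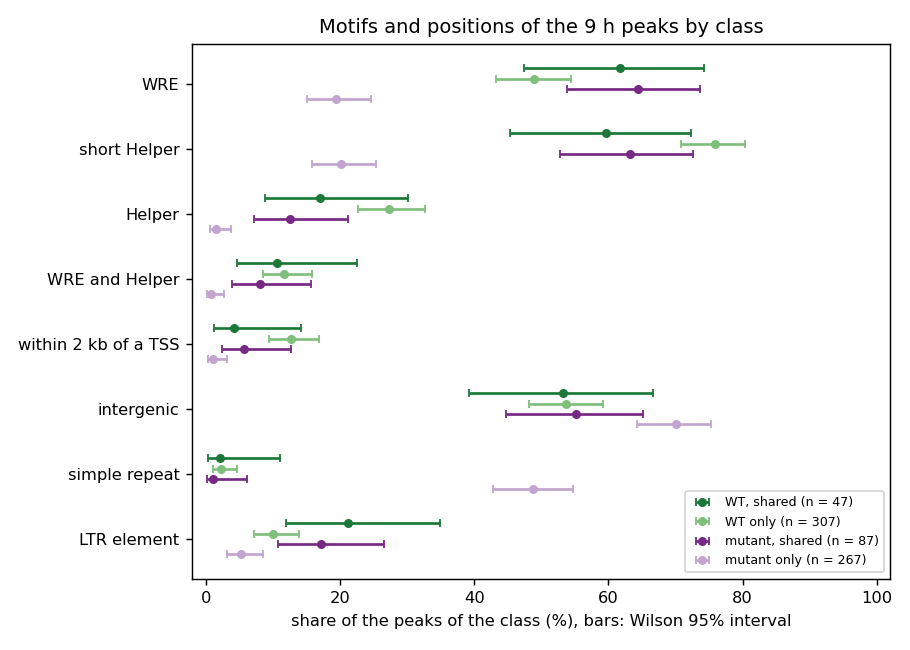
Share of peaks (%, Wilson 95% intervals) with each element or position, for dnTCF1EWT peaks that were shared (n = 47) or dnTCF1EWT only (n = 307) and dnTCF1Emut peaks that were shared (n = 87) or dnTCF1Emut only (n = 267). The dnTCF1Emut-only peaks stand apart in the WRE (19.5%) and in simple repeats (48.7%).

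Most shared peaks held a WRE in both lists. Of the 87 shared dnTCF1Emut peaks, 56 held a WRE (64.4%, 53.9 to 73.6%), against 52 of the 267 found for dnTCF1Emut only (19.5%, 15.2 to 24.6%), an odds ratio of 7.42 (4.24 to 13.2). After removal of AT-rich peaks and of those with a 0 h peak in the dnTCF1Emut line, it was 65.1% of 83 against 36.4% of 132 (3.24, 1.77 to 6.04). Short Helper sites followed the same order, in 63.2% of shared and 20.2% of dnTCF1Emut-only peaks. Among the dnTCF1EWT members, 29 of 47 shared peaks (61.7%) and 150 of 307 dnTCF1EWT-only peaks (48.9%) held a WRE, an odds ratio of 1.68 (0.863 to 3.36). Helper sites were in 17.0% of the shared and 27.4% of the dnTCF1EWT-only peaks (0.545, 0.211 to 1.25), and neither of these differences was resolved. Short Helper sites were in 59.6% and 75.9% (0.469, 0.237 to 0.944), which within strata of GC content was 0.67 (0.335 to 1.33). Peaks with 2 or more Helper sites were 2 of 47 and 50 of 307.

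**Figure D4:**
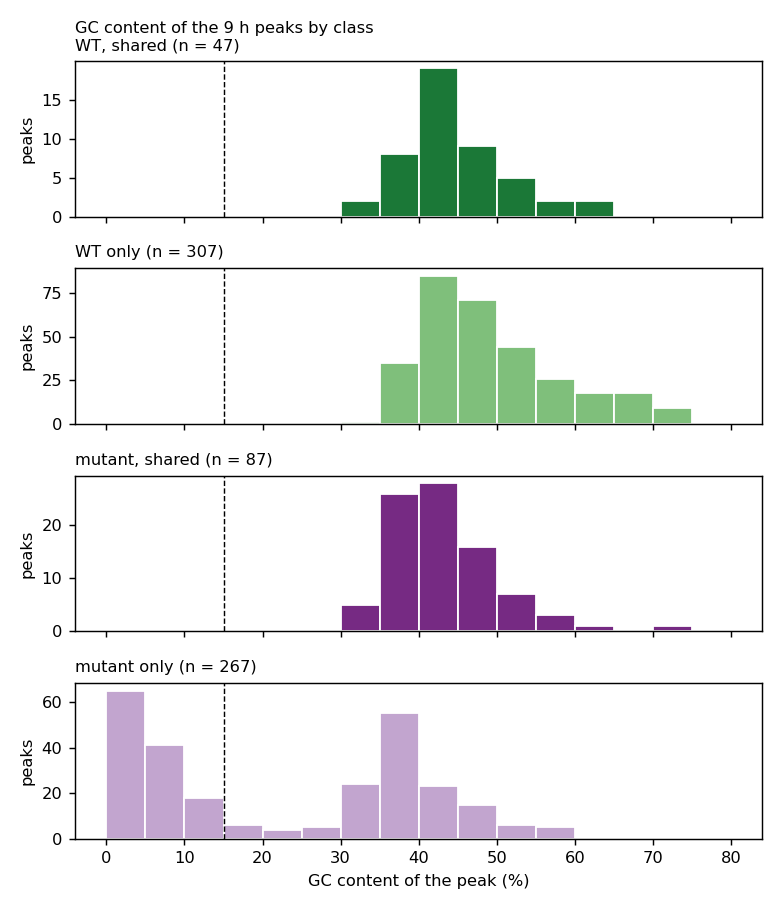
Number of peaks by GC content (%, bins of 5%) in the 4 classes, with the 15% limit as a dashed line. The dnTCF1Emut-only peaks form a group below 15% (124 of 267) that no other class has.

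The peaks found for dnTCF1Emut only fell into AT-rich repeats and a remainder. All 124 AT-rich peaks of dnTCF1Emut were unshared, 111 lay at simple repeats, 2 held a WRE and 4 a short Helper site. Of these 124 peaks, 101 (81.5%) were already present in the untreated dnTCF1Emut line, in which no protein was induced. Simple TA repeats made up 98 of the 267 dnTCF1Emut-only peaks and none of the dnTCF1EWT members. They include the peaks nearest to LOC729852 (225.13), MIR302F (215.78), RRAS2 (150.70), CXorf36 (149.98), MIR708 (147.69) and FBXO48 (144.10). A TATAA repeat near OR7E156P (217.76) is not counted among the 98. With it, these named peaks are 7 of the 10 highest dnTCF1Emut-only peaks. The others were KIF21A (250.01), a kinesin gene, CCDC85A (160.51), at an L1 element with 4 WREs, and ELK2AP (145.25), a pseudogene. Over the whole list, 116 dnTCF1Emut peaks had a 0 h peak in the same line (32.8%), and the 0 h score was the higher in 103 of these, with a mean log2 ratio of 0 h to 9 h of 1.05 ± 0.93. For dnTCF1EWT, 21 members did (5.93%), and without the AT-rich peaks the odds ratio between the lists was 0.904 (0.433 to 1.93).

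A set of 132 dnTCF1Emut-only peaks had 15% GC or more and no 0 h peak in that line. Of these, 48 held a WRE, 60 were also in the dnTCF1Emut 2 h list, 33 in the dnTCF1EWT 2 h list and 70 in neither. The strongest was the intronic peak of KIF21A (chr12:39821066-39821726), with 1 WRE and 2 short Helper sites, scored 211.22 by dnTCF1Emut and 77.85 by dnTCF1EWT at 2 h. ELK2AP (145.25), with neither a WRE nor a short Helper site, and EPHA4, an ephrin receptor gene (137.79, 2 WREs), followed. A site of this class is therefore one without a listed dnTCF1EWT peak at 9 h, and not always one that dnTCF1EWT lacked at 2 h. EPHA4 was named after its values were seen.

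Most shared sites were already listed at 2 h. Of the 47 shared dnTCF1EWT peaks, 39 had a dnTCF1EWT peak at 2 h (83%) and 43 a dnTCF1Emut peak (91.5%). Of the 307 dnTCF1EWT-only peaks, 192 had a dnTCF1EWT peak at 2 h (62.5%) and 60 a dnTCF1Emut peak (19.5%), and for the latter the odds ratio was 43.7 (15 to 174). The shared class is set by the dnTCF1Emut 9 h list, of which 65.8% had a dnTCF1Emut 2 h peak. This odds ratio therefore follows in part from how the classes were made, and is a description only. Of the 307, 57 had a peak of both proteins at 2 h, SP5 among them, and were listed for dnTCF1EWT alone at 9 h, while 3 had a 2 h peak of dnTCF1Emut and none of dnTCF1EWT. A further 135 had a 2 h peak of dnTCF1EWT and none of dnTCF1Emut, and 112 had no 2 h peak of either protein. The dnTCF1Emut 9 h list is shorter than its own 2 h list of 1883 peaks, and whether sites were lost or fell below the score limit cannot be told apart from the lists.

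**Figure D5:**
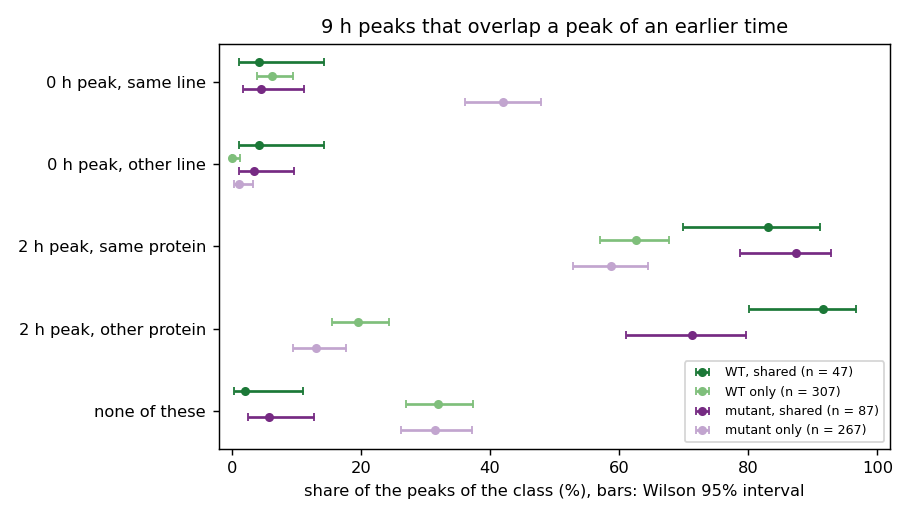
Share of the 9 h peaks of each class (%, Wilson 95% intervals) that overlapped a peak of the same or the other cell line at 0 h or 2 h. Shared peaks had a 2 h peak of the other protein in 91.5% (dnTCF1EWT) and 71.3% (dnTCF1Emut), and dnTCF1Emut-only peaks had a 0 h peak of the same line in 41.9%.

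Known Wnt target genes were nearest to peaks of both lists. Of 32 such genes, 6 were nearest to 10 of the dnTCF1EWT members (2.82% of them, against 0.462% over the full dnTCF1EWT list), and 2 were nearest to 2 dnTCF1Emut peaks (0.565%). AXIN2, the negative feedback regulator of the pathway, had 4 dnTCF1EWT-only peaks with scores of 264.36, 230.89, 145.88 and 140.38, at 4.4 to 168 kb from its TSS, each with at least 1 WRE and no Helper site. ID2, an inhibitor of basic helix-loop-helix factors, had 2 (223.00 and 206.38). APCDD1, a Wnt inhibitor, had 1 at 173.97, and TCF7L2, which encodes TCF4, had 1 at 142.36. TCF7L1, with 1 at 138.85, is not in this list but shares a list of 4 LEF/TCF family genes with TCF7L2. That family list took 2 dnTCF1EWT members (0.565%, against 0.0539% of the full dnTCF1EWT list), and this difference was not tested. CDX2, an intestinal homeobox gene, was shared, with a region 3.3 kb from its TSS (chr13:28539972-28540525) scored 438.22 and 168.16 at 9 h and 1835.07 and 135.62 at 2 h for dnTCF1EWT and dnTCF1Emut. JAG1, a Notch ligand gene, was shared with the higher score for dnTCF1Emut (164.42 against 95.78), and its peak held 2 WREs and no short Helper site.

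Peaks near the other pathway lists were counted in the same way. Of 64 genes for Wnt ligands, receptors and transducers, LRP5, a Wnt co-receptor, was the only one (271.87, dnTCF1EWT only), which is 0.282% of the dnTCF1EWT members against 0.454% of the full dnTCF1EWT list. Of 42 BMP and TGF-β genes, ID2 and SMURF2 (280.37), a ubiquitin ligase, were nearest to dnTCF1EWT members, and TGFBR2 (51.92, shared) and BMPR1B (99.65, a TA repeat) to dnTCF1Emut peaks, with 0.847% of the members against 0.50% of the full dnTCF1EWT list. Of 37 early response genes, GADD45B (208.20) had a dnTCF1EWT-only peak with 2 Helper sites. AREG, an EGF receptor ligand gene, had a shared region (136.21 and 61.78) and 2 dnTCF1Emut-only peaks (58.76 and 55.84), and KLF10 (72.16) had a TA repeat. The early response genes took 0.565% of the dnTCF1EWT members and 1.13% of the dnTCF1Emut peaks, against 0.346% of the full dnTCF1EWT list. Of 19 intestinal transcription factors, CDX2 and KLF4 (661.67, dnTCF1EWT only, 18 short Helper sites and no WRE) were members, at 0.565% of the dnTCF1EWT members against 0.30% of the full list. With 1 to 3 dnTCF1EWT members behind each of these shares, no difference from the full list was tested. None of 40 cell-cycle genes was nearest to a member of either list. In the full dnTCF1EWT list, 18 were nearest to a peak, with only 0.177% of its peaks. Their absence from the members is therefore not read as a depletion. Counted over all genes, 320 were nearest to dnTCF1EWT members and 330 to dnTCF1Emut peaks, and 55 were in both (17.2% and 16.7%), 47 of them through a shared region. RORA and PCP4 were among the other 8, each with separate regions for the proteins.

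Endogenous retroviral repeats carried WRE peaks of both proteins. MER11A elements carried 11 dnTCF1EWT members (3.11%) and 7 dnTCF1Emut peaks (1.98%), all with a WRE. Of these, 1 of the 11 and 5 of the 7 were shared. In the full dnTCF1EWT list, MER11A elements carried 75 peaks (0.577%), 62 of them with a WRE. LTR elements as a whole made up 11.6% of the dnTCF1EWT and 8.19% of the dnTCF1Emut peaks (odds ratio 1.47, 0.866 to 2.51). Within strata of GC content the odds ratio was 0.709 (0.404 to 1.25), and both intervals include 1. The LTR share of the full dnTCF1EWT list was 6.26%. The MER11A copy near HHIP, which encodes a Hedgehog-binding protein, was shared at 332.02 and 149.97. The strongest, near NBAS (568.71), was listed for dnTCF1EWT only, and ZNF675 (57.73) had a shared element with 5 WREs. Copies of 1 element are similar in sequence, so these peaks are not independent sites. Alu elements, which hold 76.0% of the full dnTCF1EWT list, carried 1.41% of the members and 1.13% of the dnTCF1Emut peaks.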

How the data were processed

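FLAG ChIP-seq was analysed in DLD-1 cells for dnTCF1EWT and dnTCF1Emut at 0, 2 and 9 h. Per the labels' processing notes, the submitters used CASAVA 1.8.2, Bowtie2 2.0.0, MACS 1.3 and HOMER 3.16 with hg19. The authors pooled duplicates before MACS, and the deposited peak score is that of MACS, which rises with the -log10 of the peak P-value and is unscaled. The labels call most samples first replicates, while the deposited lists are headed as made from both. The deposited GC content is a fraction, given here in percent. The deposited distance to the TSS and motif numbers are those of HOMER, unscaled for peak length. The deposited bed files repeat the same peaks and scores. Inputs were not used, and depth is unknown.

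The 354 highest dnTCF1EWT peaks and all 354 dnTCF1Emut peaks were ranked by score and overlapped by at least 1 base, taking the highest-scoring partner. Shares have Wilson 95% intervals. Odds ratios have exact conditional 95% intervals, pooled by Mantel-Haenszel over strata of 5% GC or of length (limits 200, 300, 400 and 600 bp). A difference was called where the interval left out 1. Overlaps and intervals were tested on simulated data. AT-rich means below 15% GC. A nearest gene is HOMER's. The members and gene lists were chosen with earlier results of these data known. Named peaks are the 10 highest shared, dnTCF1EWT-only and dnTCF1Emut-only, all dnTCF1Emut and the 10 highest dnTCF1EWT promoter peaks, the 5 richest in Helper sites, the extreme score ratios, the limits of the selection and all peaks of the gene lists, and others were named after their values were seen. Peaks at some genes are not reported here. A limit for a count of 0 is 3 counts. Promoter sequences are RefSeq, GRCh38.p14, and peak sequences were not used here. Tools were SciPy 1.17.1, statsmodels 0.14.6, NumPy 2.4.6, pandas 2.3.3 and matplotlib 3.10.9 in Python 3.11.15.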

Additional observations from a re-analysis of the deposited data

How the results depend on the processing

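Of 84 alternative values, 67 kept their direction and side of the threshold, or stayed within the interval of the value reported. The WRE odds ratio of 2.33 fell to 1.15 with the 1000 highest dnTCF1EWT peaks, 1.41 without peaks that overlap a 0 h peak, 1.20 without AT-rich peaks and 1.34 within strata of GC content, all with intervals that include 1, and it reversed to 0.160 with all listed dnTCF1EWT peaks and to 0.397 with peaks scored above 67. The Helper odds ratio came to 1.15 with all listed peaks and 1.51 with peaks above 67, and no longer left out 1. Those 2 settings bring in dnTCF1EWT peaks with lower scores than the members. Alu elements held 76.0% of all listed dnTCF1EWT peaks, and their share above a score of 67 was not computed. The part of Alu peaks in these changes was not tested. Within strata of GC content the promoter (2.09), intergenic (0.700) and 0 h (0.415) odds ratios included 1, as did the 0 h odds ratio without AT-rich peaks (0.904). Sharing among the dnTCF1EWT members moved to 9.89% with peaks above 67, 6.40% of 1000 peaks and 5.37% against dnTCF1Emut scores of 100 or more. Sharing of dnTCF1Emut peaks moved to 34.6% without 0 h peaks and 37.8% without AT-rich peaks. Strata of length gave no AT-rich odds ratio because no dnTCF1EWT peak was AT-rich. The settings without promoters, with 1 peak per gene, and without both AT-rich and 0 h peaks were chosen after seeing the data and changed no call. No paired analysis was possible because each condition is 1 pooled list and no replicate can be left out.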
